A study of Drosophila melanogaster with 4 samples.

Results

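The genes of the structural proteins of the insect cuticle were described in RNA of Drosophila wing imaginal discs, the larval epithelial sacs that form the adult wing and much of the thorax. Members were all genes whose FlyBase symbol begins with Cpr, Twdl, Lcp, Ccp84 or Edg followed by its position or letter, chosen by symbol and not by any measured value. This gave 123 genes of 14061 that could be named, 120 of them annotated as protein coding and 3 as pseudogenes, and each was represented by its most abundant entry in the deposited tables. The 4 libraries, 1 per genotype, came from larvae in the third instar. The 2 assay genotypes were sd::Gal4>UAS::FH-cortoCD and sd::Gal4>UAS::RpL12-Myc. In the former the yeast activator Gal4, made in the wing disc under control of scalloped (sd), drove a Flag- and HA-tagged chromodomain of Corto, and in the latter it drove Myc-tagged RPL12, a ribosomal protein. The sd::Gal4/+ control carried the driver alone, and the w1118 reference line, with which the transgenic lines had been isogenized, carried neither driver nor transgene. Each library was made from a pool of 300 discs of female larvae, dissected as 6 batches of 50 with 1 disc per larva. With 1 library per genotype no value has a replicate check, and every test below compares the reads of 1 library with those of another, not the genotypes.

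The cuticle is secreted by the epidermis at each moult as layers of chitin fibres embedded in protein. Most of its proteins carry the Rebers and Riddiford sequence, which binds chitin, and these are the Cpr genes, named after their position on the chromosomes, together with the older Lcp, Ccp84A and most Edg genes. The Tweedle genes (Twdl) form a separate family, known from TwdlD, in which mutations make the larva and pupa short and stout. Each stage uses its own set of these genes. Lcp1 to Lcp4, clustered at 44D, and many genes of the 65A cluster encode larval cuticle proteins of the epidermis. The Edg genes were found as genes of imaginal discs that are expressed once a pulse of ecdysone, the moulting steroid hormone, has risen and fallen again. The wing disc itself is an imaginal tissue that makes its own cuticle only later, at pupation and in the pupa. Genes of the tracheae, muscle precursors and nerves attached to the disc are also represented in RNA of dissected discs.

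The libraries held 26833482 to 44736060 counts, both reads of each pair summed, and 3 counts, taken as the limit of detection, were worth 0.0683 to 0.107 RPM, the reads per 1000000 counts of the library after TMM scaling. Intervals and limits of this kind cover counting error only. The over-expressed genes went against the labels. RpL12 (FBgn0034968, chromosome 2R) had 29086 reads in the FH-cortoCD-labelled library, 24106 in the RpL12-Myc-labelled library, 17429 in sd::Gal4/+ and 9993 in w1118. corto (FBgn0010313, chromosome 3R) had 6164 reads in the FH-cortoCD-labelled library, 7836 in the RpL12-Myc-labelled library, 7766 in sd::Gal4/+ and 5424 in w1118. Scaled for library size, this RpL12 entry stood at log2 fold changes of 0.49 and 0.16 against sd::Gal4/+ in these assay libraries, in that order. The gene has further entries with fewer reads, whose fold changes were not computed here. In the study's own list such RpL12 entries are upregulated in the FH-cortoCD library, at unscaled log2 fold changes above 1. The small excess given here thus holds for the entry shown and not for all of RpL12. Scaled in the same way, corto stood at -0.58 and -0.29, below sd::Gal4/+ in both. Endogenous and transgene reads are pooled in these counts, and the corto transgene holds only the chromodomain, so corto reads measure it in part at most. In the public record the genotype tags of both assay libraries also stand the other way round from their titles. The titles were followed here, because the alignment totals recovered from the counts and fractions of each file equal those listed in the study for the library of that title. Titles and files thus match, while the reads of the over-expressed genes do not settle the genotypes, so the assays are named by label, and an exchange of the samples would exchange their names in everything below. Of 13 wing disc genes listed as markers, 13 had at least 100 reads over the libraries, with a sum of 1411 to 2044 RPM in each library.

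Most cuticle protein genes had few reads or none in these discs. Of the 123 genes, 31 had no read in any library and 34 had 1 to 9 reads in all libraries together. Another 28 had 10 to 99 reads, 30 had at least 100 and 13 had at least 1000. The share without a read was 25.2%, against 14.5% of all 14061 named genes, and the share with at least 100 reads was 24.4%, against 57.7%. A count of 0 leaves room for a level below the limit of detection, and reads that matched more than 1 place had been removed by the authors. The groups differed widely. The 5 genes of the 44D cluster included 4 with at least 100 reads, and the pseudogene Lcp1Psi had 1 read. Of 64 genes placed elsewhere, Cpr genes and Lcp9, 22 had at least 100 reads. Among 26 Tweedle genes 3 did, and among 18 genes of the 65A cluster and 7 Ccp84A genes none did. Reads were found for 76 members in the FH-cortoCD-labelled library, 79 in the RpL12-Myc-labelled library, 69 in sd::Gal4/+ and 59 in w1118, the shallowest library, and 51 had reads in every library.

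**Figure D1:**
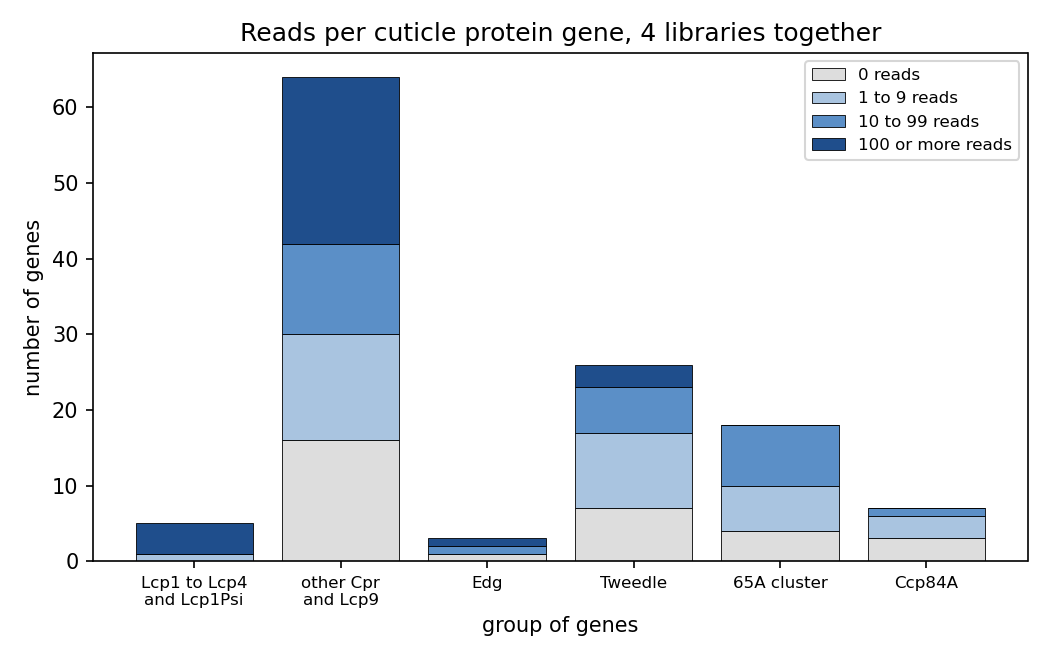
Number of cuticle protein genes (vertical axis) by group of genes, stacked by the reads each gene had in the 4 libraries together. Genes with at least 100 reads make up 4 of the 5 genes at 44D and 22 of the 64 other Cpr genes with Lcp9, and none of the 65A and Ccp84A genes.

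All members together summed to 467 RPM in the FH-cortoCD-labelled library, 429 in the RpL12-Myc-labelled library, 300.1 in sd::Gal4/+ and 328 in w1118, and without Lcp1 to Lcp4 to 423, 368, 294.5 and 305. Both assay libraries thus lay above both controls with or without the larval genes. A few genes carried most of the signal. Levels are given per length, as RPM per kilobase of the entry, wherever genes are compared with each other. Cpr49Ac (FBgn0033725, chromosome 2R from 8276023 to 8277562 of dm3, plus strand), a Rebers and Riddiford gene, had 6264 reads in the FH-cortoCD-labelled library, 6736 in the RpL12-Myc-labelled library, 4091 in sd::Gal4/+ and 3433 in w1118. Its level was 151 and 156 in these assay libraries, 117 in sd::Gal4/+ and 125 in w1118, and its mean of 137 ranked 419 among 13297 genes whose entry had at least 200 bases. It thus stood among the more abundant transcripts of the disc, and it alone made up 31.7% of the cuticle protein reads in the FH-cortoCD-labelled library, 35.7% in the RpL12-Myc-labelled library, 38.4% in sd::Gal4/+ and 37.4% in w1118. Next in mean level came Cpr12A, a gene of the X chromosome, at 57.2 and Cpr64Aa, of chromosome 3L, at 39.5. With these the first 3 genes held 54.3% to 66.0% of the cuticle protein reads of a library. Cpr12A had 2392 reads in the FH-cortoCD-labelled library, 1855 in the RpL12-Myc-labelled library, 1872 in sd::Gal4/+ and 1329 in w1118, and Cpr64Aa had 2058, 2091, 1077 and 939 in the same order.

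The order of the mean levels went on with Cpr49Ag at 31.4, Lcp1 at 26.1, Cpr78E at 18.7, Cpr51A at 18.0, Cpr49Ah at 15.4, Cpr65Ec at 15.2 and Lcp2 at 12.8. The ranges of neighbours in that order overlapped over the libraries, except that Cpr49Ac, at its lowest of 117, lay above Cpr12A in all libraries, and Cpr12A, at its lowest of 48.5, just above Cpr64Aa with its highest of 48.0. Within some clusters the levels were far apart. At 49A, 8 Cpr genes lie between 8264175 and 8302675 on chromosome 2R, of which Cpr49Ac, Cpr49Ag and Cpr49Ah had 309 reads or more in every library while the other 5 had fewer than 10 reads each over all libraries. At 65E, Cpr65Ec had 163 to 513 reads per library and its neighbours Cpr65Ea and Cpr65Eb had none. Elsewhere neighbours were alike, with all 3 genes of the 67F cluster at 100 reads or more and all 4 of the 76B cluster under 10. These neighbours, and further genes outside the rule for naming, were picked out after their values had been seen.

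**Figure D2:**
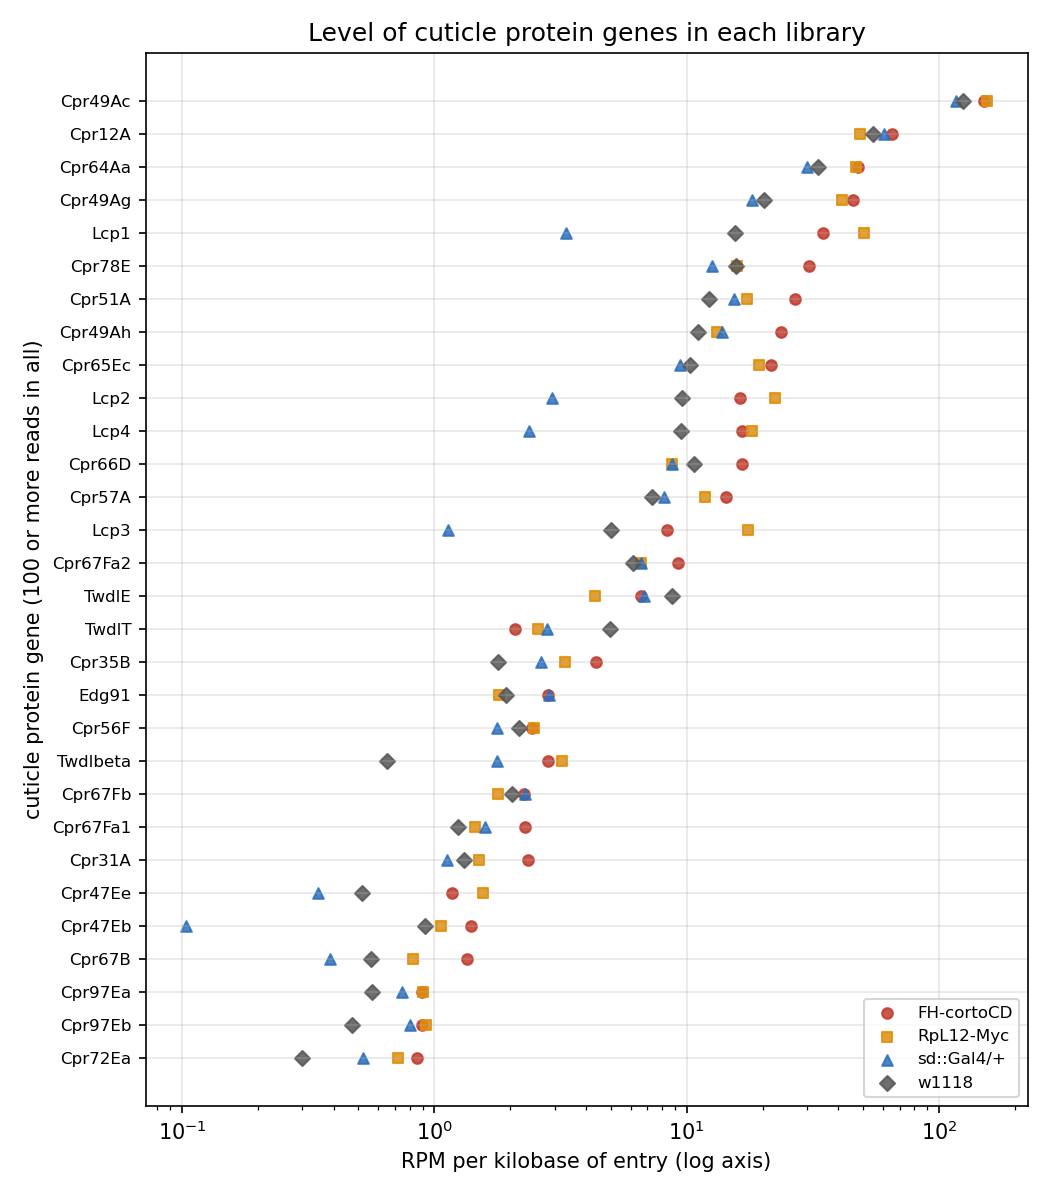
Level of the 30 cuticle protein genes with at least 100 reads, in RPM per kilobase of entry on a log axis, 1 symbol per library and no error bars because no genotype was replicated. Cpr49Ac lies at 117 to 156 in all libraries, while Lcp1 runs from 3.31 in sd::Gal4/+ to 50.6 in the RpL12-Myc-labelled library.

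The larval cuticle genes of the 44D cluster differed widely between libraries. Lcp1 (FBgn0002531, chromosome 2R from 4318139 to 4318737, minus strand) had 789 reads in the FH-cortoCD-labelled library, 1190 in the RpL12-Myc-labelled library, 63 in sd::Gal4/+ and 234 in w1118. Lcp2 (FBgn0002533) had 375, 541, 57 and 147 reads in the same order. Lcp3 (FBgn0002534) had 183, 401, 21 and 73 reads, and Lcp4 (FBgn0002535) had 486, 549, 58 and 184. Every one of the 4 genes was lowest in sd::Gal4/+, next in w1118, higher in the FH-cortoCD-labelled library and highest in the RpL12-Myc-labelled library, once scaled for library size. With the 1 read of Lcp1Psi included, the cluster made 43.4 RPM in the FH-cortoCD-labelled library, 61.0 in the RpL12-Myc-labelled library, 5.63 in sd::Gal4/+ and 22.8 in w1118. As a share of all cuticle protein reads Lcp1 to Lcp4 alone were 9.29%, 14.2%, 1.87% and 6.95% in that order. First reads covered 87.3% of the bases of the Lcp1 entry in sd::Gal4/+ and 99.1% to 100% in the other libraries. Lcp1 and Lcp2 are closely similar copies, as are Lcp3 and Lcp4, so removal of reads with more than 1 match may have lowered their counts and any division between copies is uncertain. In bulk RNA of this kind fewer cells of a type and less RNA per cell cannot be told apart.

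Against sd::Gal4/+, the FH-cortoCD-labelled library had 7 cuticle protein genes called higher and none called lower. A gene was called when edgeR's binomial test, with Benjamini-Hochberg adjustment over all 30950 entries, gave an adjusted P-value below 4e-18 and the absolute log2 fold change was above 1. The 7 genes were 5.69% of the 123, beside 1.27% of all named genes called higher and 1.27% called lower in this comparison. Among genes with at least 100 reads they were 7 of 30, or 23.3%, beside 2.19% of all such genes. Called genes were Lcp1, Lcp2, Lcp3, Lcp4, Cpr49Ag, Cpr65Ec and Cpr78E. Lcp1 had a log2 fold change of 3.40 (95% counting interval 2.80 to 3.86, from the first reads alone; edgeR adjusted P = 4.6e-133), Lcp3 of 2.87, Lcp4 of 2.82 and Lcp2 of 2.47. The other 3 are Rebers and Riddiford genes of other places.

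Cpr49Ag (FBgn0033730, chromosome 2R from 8295341 to 8296038) had 1193 reads in the FH-cortoCD-labelled library, 1121 in the RpL12-Myc-labelled library, 400 in sd::Gal4/+ and 351 in w1118, so that the assay libraries lay together and above both controls. Its log2 fold change in the FH-cortoCD-labelled library was 1.33 (interval 1.10 to 1.57, edgeR adjusted P = 6.31e-63). Cpr65Ec (FBgn0035737, chromosome 3L from 7086309 to 7086943) had 513 reads, 480, 189 and 163 in the same order of libraries. It likewise lay higher in both assay libraries, with a log2 fold change of 1.19 (interval 0.83 to 1.52, edgeR adjusted P = 2.19e-23) in the FH-cortoCD-labelled library. Cpr78E (FBgn0037114, chromosome 3L from 21659554 to 21660080) had 597, 321, 206 and 202 reads and was high in the FH-cortoCD-labelled library alone, with a log2 fold change of 1.28 (interval 0.94 to 1.60, edgeR adjusted P = 2.22e-30). Over the 30 members with at least 100 reads the median log2 fold change was 0.75, beside 0.0044 over all 8113 such genes, and 26 of the 30 lay above 0, beside 50.5% of all such genes. Without Lcp1 to Lcp4 the median of the other 26 was 0.70. Lcp3, Cpr65Ec and Cpr78E lost their calls with first or second reads alone, and only Lcp1 stayed called when the dispersion of the control libraries was used in edgeR's exact test. On unscaled fold changes 9 genes were called, Cpr49Ah and Cpr66D in addition, and 4 genes, Lcp1, Cpr49Ag, Cpr49Ah and Cpr51A, were called against w1118.

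In the RpL12-Myc-labelled library 5 cuticle protein genes were called higher against sd::Gal4/+, namely Lcp1 to Lcp4 and Cpr49Ag, and none lower. This was 4.07% of the 123, beside 0.832% of all named genes called higher and 1.67% called lower. Among members with at least 100 reads it was 16.7%, beside 1.43%. The log2 fold change was 3.95 for Lcp3, 3.93 for Lcp1 (interval 3.33 to 4.38, edgeR adjusted P = 8.59e-220), 2.94 each for Lcp2 and Lcp4, and 1.18 for Cpr49Ag (interval 0.95 to 1.42, edgeR adjusted P = 2.51e-48). Cpr65Ec, at 1.04, passed the limit on the fold change but its edgeR adjusted P-value of 2.48e-17 missed the cutoff, so the lists of called genes do not show that the assays differ in this gene. The median over the 30 members was 0.42, beside 0.025 over all genes with at least 100 reads. Of the 30, 22 lay above 0, beside 52.5% of all such genes. The median was 0.32 over the 26 without Lcp1 to Lcp4, and 0.72 over the 30 on unscaled counts. With the exact test and the dispersion of the controls 4 genes stayed called, and Cpr49Ag did not. Both assays were set against the same sd::Gal4/+ library, so its low Lcp counts enter both comparisons.

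The controls also differed from each other. In w1118 Lcp1 and Lcp4 were called higher than in sd::Gal4/+, or 1.63% of the 123 members beside 0.0427% of all named genes, and no member was called lower, beside 0.356%. The log2 fold change was 2.24 for Lcp1 (interval 1.75 to 2.89, edgeR adjusted P = 4.91e-32) and 2.01 for Lcp4 (interval 1.37 to 2.62, edgeR adjusted P = 8.96e-22). Lcp3, at 2.14, and Lcp2, at 1.71, missed the cutoff with edgeR adjusted P-values of 2.51e-09 and 7.37e-14. With second reads alone no call remained, and with first reads alone Lcp1 stayed called. The exact test with the dispersion of the controls left none either. Its dispersion came from these same libraries taken as replicates, so that test cannot decide whether they differ. Over the 30 members the median was 0.14 after scaling and -0.21 on unscaled counts, where its direction turned, and over the 26 without Lcp1 to Lcp4 it was -0.0094 after scaling. Cpr49Ag and Cpr65Ec were close between the controls, at 0.16 (interval -0.17 to 0.43) and 0.13 (interval -0.34 to 0.53).

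With w1118 in place of sd::Gal4/+ the assays kept higher larval cuticle counts, by less. In the FH-cortoCD-labelled library 4 members were called higher, beside 1.83% of all named genes, and Lcp1 stood at 1.16 (interval 0.72 to 1.30), Lcp4 at 0.81, Lcp2 at 0.76 and Lcp3 at 0.73 on the log2 scale. The library labelled RpL12-Myc had 4 called higher too, beside 1.17%, and these were Lcp1 with an interval of 1.26 to 1.82, Lcp2 at 1.23, Lcp3 at 1.81 and Cpr49Ag at 1.02. Of the 30 members with at least 100 reads, 22 had both assay libraries above both controls after scaling, beside 38.4% of all such genes, and 2, TwdlE and TwdlT, had both below, beside 34.1%.

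**Figure D3:**
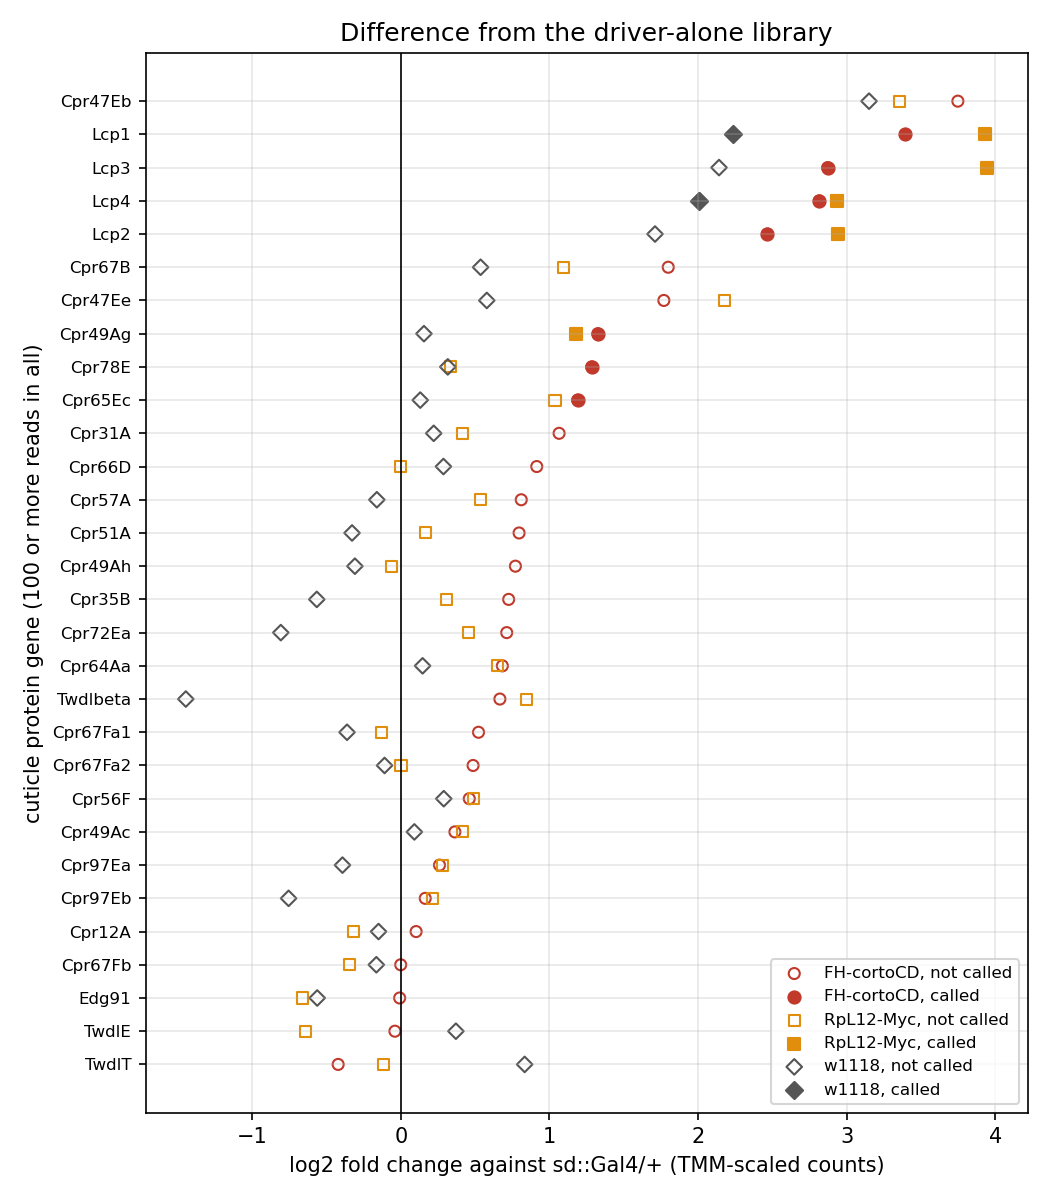
Log2 fold change against sd::Gal4/+ on scaled counts (horizontal axis) of the 30 cuticle protein genes with at least 100 reads, for both assay libraries, as labelled, and for w1118, with filled symbols for called genes. Lcp1 to Lcp4 lie at 2.47 or above in both assay libraries and at 1.71 to 2.24 in w1118, and Cpr49Ag, Cpr65Ec and Cpr78E lie at 1.19 to 1.33 in the FH-cortoCD-labelled library and at 0.13 to 0.32 in w1118.

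Between the assay libraries no cuticle protein gene was called in either direction, beside 0.135% of all named genes called higher and 0.199% called lower in the FH-cortoCD-labelled library. Without a limit on the fold change 4 members passed the cutoff, all higher in the FH-cortoCD-labelled library, beside 1.73% of all named genes. They were Cpr78E, Cpr49Ah, Cpr12A and Cpr66D, at log2 fold changes of 0.95 (edgeR adjusted P = 1.16e-20), 0.84 (2.34e-27), 0.42 (1.09e-19) and 0.91 (4.12e-24). Cpr49Ah had 987 reads in the FH-cortoCD-labelled library, 575 in the RpL12-Myc-labelled library, 486 in sd::Gal4/+ and 309 in w1118. Cpr66D, outside the rule for naming, had 747, 412, 333 and 320 reads, and Cpr51A had 754, 506, 365 and 229. These 3 genes were high in the FH-cortoCD-labelled library, with the RpL12-Myc-labelled library near sd::Gal4/+. The larval genes leaned the other way, with Lcp3 at -1.08 (interval -1.31 to -0.59, edgeR adjusted P = 2.51e-16, which missed the cutoff), Lcp1 at -0.54, Lcp2 at -0.47 and Lcp4 at -0.12 (interval -0.40 to 0.11). Over the 30 members the median was 0.27, beside -0.014 over all genes with at least 100 reads. Of the 30, 19 lay above 0, beside 46.7% of all such genes.

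At looser thresholds more members were called. With a cutoff of 0.05 on the adjusted P-value and the same fold limit, 19 of the 123 members were called higher and 0 lower in the FH-cortoCD-labelled library against sd::Gal4/+, beside 4.01% and 3.81% of all named genes. For the RpL12-Myc-labelled library 15 were called higher and 2 lower, beside 3.38% and 4.72%. For w1118 the numbers were 7 and 1, beside 0.533% and 1.73%, the 7 being Lcp1 to Lcp4, Lcp65Ab1, Lcp65Ab2 and Cpr47Eb. Between the assays 6 were called higher and 2 lower in the FH-cortoCD-labelled library, beside 1.18% and 1.3%. All 6 had fewer than 100 reads over the libraries, and among the 30 members with more only Lcp3 was called, as lower. With the cutoff of 4e-18 and no fold limit, 11 members passed as higher in the FH-cortoCD-labelled library against sd::Gal4/+, beside 6.87% of all named genes, and these included the abundant Cpr49Ac at 0.36 and Cpr64Aa at 0.68.

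The Edg genes, known from discs of the prepupal phase that follows the ecdysone pulse, were low. Edg84A (FBgn0000552, chromosome 3R from 2510172 to 2510855), a gene of prepupal imaginal discs controlled by the nuclear receptor FTZ-F1, had 0 reads in every library, which allows a level of up to 0.0710 RPM in the FH-cortoCD-labelled library, 0.0683 in the RpL12-Myc-labelled library, 0.0844 in sd::Gal4/+ and 0.107 in w1118. Edg91 (FBgn0004554) had 71 reads in the FH-cortoCD-labelled library, 47 in the RpL12-Myc-labelled library, 60 in sd::Gal4/+ and 32 in w1118, and Edg78E (FBgn0000551) had 27, 11, 15 and 9. Neither was called at the cutoff of 4e-18, and at 0.05 Edg78E was 1 of the 6 members higher in the FH-cortoCD-labelled library than in the RpL12-Myc-labelled library, at 1.35 (interval -0.19 to 2.95, edgeR adjusted P = 0.0463). The log2 fold changes of Edg91 against sd::Gal4/+ were -0.01 (interval -0.79 to 0.67) in the FH-cortoCD-labelled library, -0.66 (-1.68 to -0.0035) in the RpL12-Myc-labelled library and -0.56 (-1.52 to 0.31) in w1118. Against sd::Gal4/+ the interval of Edg78E reached from -0.90 to 1.79 in the FH-cortoCD-labelled library, so that a difference of that size was not detectable at this depth. The 7 Ccp84A genes, a cuticle cluster inside the Antennapedia complex next to Edg84A, had 13 reads in the FH-cortoCD-labelled library, 11 in the RpL12-Myc-labelled library, 4 in sd::Gal4/+ and 11 in w1118 together, and 3 of them had none.

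The 65A cluster, 18 genes between 6123485 and 6154689 on chromosome 3L, holds further larval cuticle genes and was read far less than 44D. Removal of reads with more than 1 match may have lowered the counts of near-identical copies in it, as at 44D. Its summed level was 3.26 RPM in the FH-cortoCD-labelled library, 2.02 in the RpL12-Myc-labelled library, 1.07 in sd::Gal4/+ and 1.72 in w1118. Lcp65Ab1 and Lcp65Ab2, larval genes that are near-identical copies and were picked out after their values had been seen, had 36 and 32 reads in the FH-cortoCD-labelled library, 31 and 25 in the RpL12-Myc-labelled library, 2 each in sd::Gal4/+ and 20 and 19 in w1118. They were thus lowest in sd::Gal4/+, like Lcp1 to Lcp4. Cpr47Eb, with 48, 38, 3 and 21 reads in the same order of libraries and likewise picked out afterwards, was lowest there too. None of these was called. Lcp65Ag2, in contrast, had 32 reads in the FH-cortoCD-labelled library, 9 in the RpL12-Myc-labelled library, 13 in sd::Gal4/+ and 2 in w1118.

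Tweedle genes were read at similar summed levels in all libraries, 17.9 RPM in the FH-cortoCD-labelled library, 15.4 in the RpL12-Myc-labelled library, 16.7 in sd::Gal4/+ and 21.4 in w1118, and none was called. Most of this came from TwdlE and TwdlT, both picked out after their values had been seen. TwdlE had 375 reads in the FH-cortoCD-labelled library, 257 in the RpL12-Myc-labelled library, 324 in sd::Gal4/+ and 330 in w1118. Its exons overlap those of lectin-28C on the opposite strand, and the library kit did not keep the strand, so reads of the 2 genes cannot be told apart. TwdlT had 143, 184, 161 and 226 reads, and was highest in w1118. The 12 Tweedle genes clustered on chromosome 3R between 22444845 and 22466779, among them TwdlD, had 25 reads in the FH-cortoCD-labelled library, 14 in the RpL12-Myc-labelled library, 11 in sd::Gal4/+ and 3 in w1118 together. On the X chromosome the cluster of TwdlX, TwdlY, TwdlZ and Twdlalpha summed to 2.58, 2.55, 0.985 and 0.464 RPM in that order, so that it was higher in both assay libraries than in both controls. These sums rest on few reads, 35 in sd::Gal4/+ and 13 in w1118. Twdlalpha, with 37, 42, 12 and 4 reads, has exons that overlap those of CG32568 on the same strand, so its reads may include that gene.

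Genes that build the chitin matrix were read throughout. Of 19 listed genes of chitin synthesis and matrix, 1 was called higher and 1 lower in each assay against sd::Gal4/+, and none in w1118. Of all named genes, 1.27% were called higher and 1.27% lower in the FH-cortoCD-labelled library, and 0.832% and 1.67% in the RpL12-Myc-labelled library. The gene called higher was dpy, which encodes a giant extracellular protein that anchors the epidermis to the cuticle, with 24756 reads in the FH-cortoCD-labelled library, 24449 in the RpL12-Myc-labelled library, 4829 in sd::Gal4/+ and 4436 in w1118. Its log2 fold changes were 2.11 and 2.03, and both assay libraries lay far above both controls. The gene called lower was obst-A, which encodes a chitin-binding protein needed for cuticle assembly, with 4060, 4370, 7382 and 5745 reads, and it stood at -1.11 and -1.06 on the log2 scale. The chitin synthase gene kkv had 15564, 16477, 10295 and 8344 reads, log2 fold changes of 0.35 and 0.37, and no call. Over the 18 listed genes with at least 100 reads the median was 0.32 in the FH-cortoCD-labelled library, 0.38 in the RpL12-Myc-labelled library and 0.035 in w1118, beside medians of all such genes of 0.0044, 0.025 and -0.014.

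Of 10 listed genes of tanning, which hardens and darkens cuticle, 7 were matched, and 1 was called. ple, the tyrosine hydroxylase that begins the pathway, had 313 reads in the FH-cortoCD-labelled library, 55 in the RpL12-Myc-labelled library, 41 in sd::Gal4/+ and 34 in w1118. It was called higher in the FH-cortoCD-labelled library against sd::Gal4/+, at 2.68, beside 1.27% of all named genes. Against the RpL12-Myc-labelled library it was called higher at 2.56, beside 0.135%. It was the only listed gene of this pathway called in any comparison. Ddc, the dopa decarboxylase of the next step, had 109, 88, 39 and 37 reads and was not called. Of 10 further cuticle genes outside the symbol rule 9 were matched and none was called. Among these the adult cuticle gene Acp65Aa had no read, and the pupal cuticle gene Pcp, nested in an intron of another gene, had 35, 61, 17 and 10 reads.

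The listed genes of the ecdysone response were read in every library. Of 18, 16 were matched, and in each assay 2 were called lower against sd::Gal4/+, EcR, the ecdysone receptor, and Hr3, a nuclear receptor induced at the pulse, while none was called higher. Of all named genes, 1.27% were called lower in the FH-cortoCD-labelled library and 1.67% in the RpL12-Myc-labelled library. Hr3 had 864 reads in the FH-cortoCD-labelled library, 706 in the RpL12-Myc-labelled library, 2122 in sd::Gal4/+ and 1274 in w1118, at log2 fold changes of -1.55 and -1.89. EcR stood at -1.02 and -1.01. ftz-f1, the receptor gene that acts in the prepupa once ecdysone has fallen, had 358, 363, 326 and 194 reads and differed from sd::Gal4/+ by -0.12 and -0.15 in the assay libraries and by -0.40 in w1118 on the log2 scale. The larval age of the pools is not given in the labels beyond the instar, and its part in these differences was not tested.

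Markers of other tissues also moved between the libraries. The summed muscle list (10 genes) was at 132 RPM in the FH-cortoCD-labelled library, 133 in the RpL12-Myc-labelled library, 66.6 in sd::Gal4/+ and 75.4 in w1118. Its Mhc, the muscle myosin heavy chain, was called higher in both assays against sd::Gal4/+, and Mlc2 in the FH-cortoCD-labelled library. The midgut list (8 genes, of which Jon99Ci had no read) was at 37.3, 245, 0.873 and 1.93. Of the 8, 3 were called higher in the FH-cortoCD-labelled library, beside 1.27% of all named genes. In the RpL12-Myc-labelled library 5 were, beside 0.832%. The salivary gland list (7 of 8 matched) was at 6.17, 6.67, 1.46 and 11.0, and like Lcp1 to Lcp4 it was lowest in sd::Gal4/+, but it was highest in w1118. Sgs3 was called higher in the RpL12-Myc-labelled library and Eig71Ee in w1118. The fat body list (7 genes) ran another way, at 664, 951, 1385 and 61.0. In w1118 6 of 7 genes were called lower, beside 0.356% of all named genes. Fbp2 was also called lower in both assays, and Fbp1 in the FH-cortoCD-labelled library. The trachea list (9 genes) was at 1850, 1879, 1456 and 1484, with uif, at 1125, 1207, 551 and 584 of these, called higher in both assays and knrl called lower. The median log2 fold change of the list ran the other way from its sum, at -0.19 in the FH-cortoCD-labelled library and -0.18 in the RpL12-Myc-labelled library. Wing disc genes summed to 1452, 1411, 1957 and 2044, with hth, a gene of the proximal disc, and the Hox gene Antp called lower in both assays. Of all named genes, 1.27% were called lower in the FH-cortoCD-labelled library against sd::Gal4/+ and 1.67% in the RpL12-Myc-labelled library. Adult muscle precursor genes lay between 130 and 149 in all libraries, blood cell genes between 106 and 174, and neuron genes between 27.9 and 57.5. Of the neuron genes elav was called lower in the RpL12-Myc-labelled library. The part of these tissues in the cuticle protein counts was not tested.

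**Figure D4:**
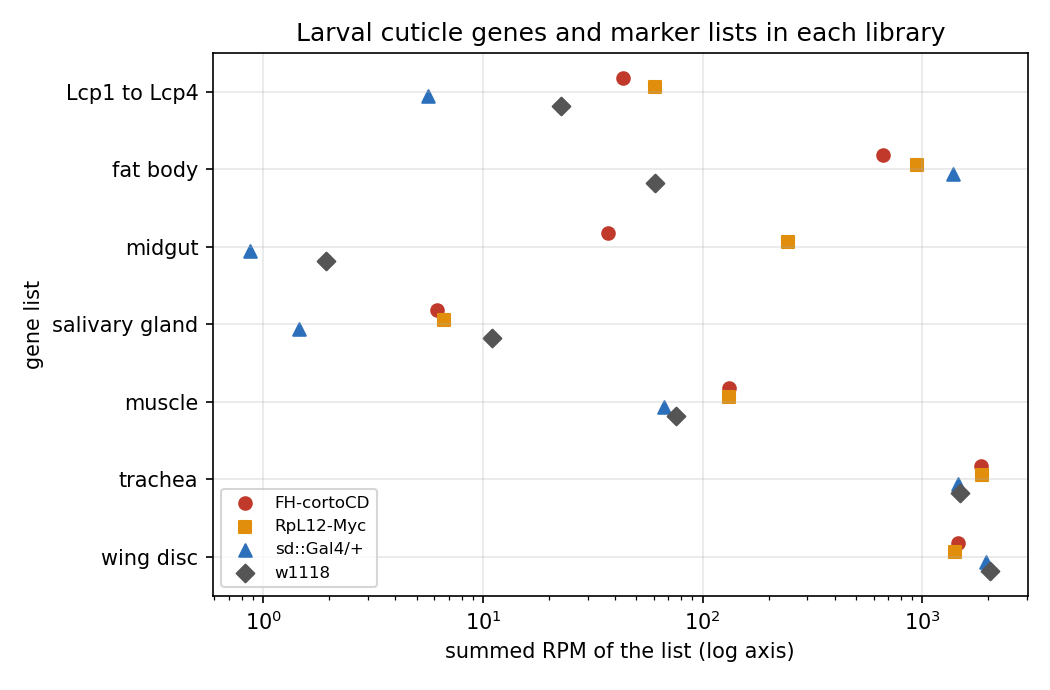
Summed RPM (log axis) of Lcp1 to Lcp4, with the 1 read of Lcp1Psi included, and of 6 marker lists in each library, 1 symbol per library without error bars. These Lcp genes run from 5.63 in sd::Gal4/+ to 61.0 in the RpL12-Myc-labelled library. The midgut, muscle, salivary gland and trachea lists are also lowest in sd::Gal4/+, while the fat body list is highest there.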

How the data were processed

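Polyadenylated RNA was read as pairs of 50 bases without strand information and aligned to dm3, and reads with more than 1 match were removed (tools named in the submitters' processing notes: CASAVA 1.7, Bowtie, SAMtools, edgeR 1.6.10). The authors deposited counts per annotated entry, separately for first and second reads and without normalization. They also deposited the number of uncovered bases and a fraction of alignments, the latter used only to check labels.

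First and second reads were added. Of 30950 entries, 28959 with 94.2% of the counts received gene names from a dm6 annotation, which served only for names and exon overlaps. The other 1991 stayed unnamed. Coordinates are those of the deposited files. The study's test was followed with its present form, binomTest of edgeR 4.0.16 (R 4.3.3), on TMM-scaled totals of all 4 libraries, and the scripts were tested on simulated data. Because mates share a fragment, P-values are too small, and the 95% intervals (exact, conditional on the sum) use first reads only. For fold changes a count of 0 was replaced by 3 counts in that library. The common dispersion, estimated from w1118 and sd::Gal4/+ taken as replicates of each other, was 0.0132, so it includes any difference between them.

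The genes named were the 10 members of highest mean level, every member called, Lcp1 to Lcp4, the Edg genes, RpL12 and corto. Members followed from their symbols alone, but the symbol rule, the lists and the tests were chosen with earlier results of these data known. Tried as alternatives were DESeq2 1.42.0 size factors, total counts, no scaling, a cutoff of 0.05, no fold limit, a minimum of 10 reads per library, first or second reads only, summed entries, w1118 as the reference, and edgeR's exact test with the dispersion of the controls. Sequences of promoters and proteins were not analysed here.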

Additional observations from a re-analysis of the deposited data

How the results depend on the processing

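Sets of called genes were sensitive to the test and its thresholds more than to scaling. With DESeq2 size factors, total counts, at least 10 reads in every library or all entries of a gene summed, no gene crossed the threshold. This held for all 20 fold changes of single genes checked, called or not. For the FH-cortoCD-labelled library against sd::Gal4/+ the 7 genes called higher became 4 with first reads alone, 4 with second reads alone, 1 with the exact test, 4 against w1118, 9 on unscaled fold changes, 19 at a cutoff of 0.05 and 11 with no fold limit. For the RpL12-Myc-labelled library the 5 higher became 4 with the exact test (without Cpr49Ag) and 4 against w1118 (without Lcp4). At 0.05 the 5 became 15, and the 0 lower became 2. With no fold limit the 5 became 7, or 5.69% of the 123 members, below the 7.04% of all named genes at that setting. Among genes with at least 100 reads the 7 were 23.3% of 30 members, above the 12.2% of all such genes. For w1118 against sd::Gal4/+ the 2 higher became 1 with first reads, 0 with second reads and 7 at 0.05. The 0 lower became 1 at 0.05. The exact test left 0 of the 2 higher, but its dispersion was estimated from these same libraries and takes in their difference. Between the assays the 0 higher became 6 at 0.05 and 4 with no fold limit, and the 0 lower became 2 at 0.05. For first or second reads alone, the exact test and unscaled fold changes, the share of all named genes called was not computed. Those counts thus do not show whether members lost or gained calls more than other genes did. Each read alone holds fewer counts, and the cutoff of 0.05 and the lack of a fold limit are looser by construction. The exact test adds a dispersion to the counting error and is stricter, while unscaled fold changes leave out library depth. For w1118 as the control the cause was not tested. Of 212 fold changes of single genes, 185 kept their side, 24 fell below the threshold and 3 rose past it. The median of w1118 against sd::Gal4/+ turned from 0.14 to -0.21 on unscaled counts, which do not correct for the depth of the libraries. No paired analysis was possible because each genotype has 1 library. Depth limits the 93 members with fewer than 100 reads, for which changes below the cutoff are not excluded.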
